A study of Mus musculus with 60 samples.

Results

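The nuclear genes of oxidative phosphorylation were examined for 2 histone modifications in hippocampal neurons of exercised and sedentary juvenile mice. Genes were chosen by name: symbols that start with Nduf, Uqcr or Atp5, Sdh followed by a, b, c or d, or Cox followed by a digit from 4 to 8 and a letter, without processed copies marked -ps. The peak lists held 73 such symbols of 16994 gene symbols in all. Of these, 72 belonged to protein-coding genes and 1, Ndufb4c, was annotated as a processed pseudogene and had no peak near its start. The annotation (GENCODE M21, GRCm38) holds 98 protein-coding genes that fit the rule, so 26 of them were not assigned a peak in any list, although peaks that carried another gene's name lay at some of them (described below with the neighbours). Shares below are given over these 98 genes, 83 for subunits of the complexes and 15 for assembly factors and related proteins, beside the same share over all 21911 protein-coding gene names.

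Oxidative phosphorylation makes most of the ATP of a neuron. Complex I takes electrons from NADH and complex II takes them from succinate, complex III passes them to cytochrome c, complex IV passes them to oxygen, and ATP synthase (complex V) uses the proton gradient that complexes I, III and IV build. A few catalytic subunits are encoded by mitochondrial DNA, and the others, like the factors that assemble the complexes, are encoded by nuclear genes, many of them among those described here. H4K8ac is an acetylation of histone H4 found at active promoters and enhancers, and H3K27me3 is a methylation of histone H3 laid down by Polycomb at silent genes.

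All mice were Emx1-NuTRAP, a line in which Emx1-Cre switches on a tag for nuclei and ribosomes, so that nuclei of Emx1-lineage cells, mainly excitatory neurons, can be pulled from the hippocampus. Mice of the early-life exercise group (ELE) could run on a wheel between postnatal days 21 and 41, and the others stayed sedentary over the same days. Nuclei came from both hippocampi together with RNA (SIT, simultaneous INTACT and TRAP), or alone from the left or the right hippocampus (separate isolations), and were profiled by CUT&RUN-seq, which releases and sequences the DNA beneath an antibody. The labels give 60 samples, with 4 per antibody and condition in SIT and 3 in each separate arm, of which 20 are IgG controls that have no list of their own here. The data were 12 peak lists, each pooled for 1 mark, condition and arm.

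A list gives the position of each peak and the gene assigned to it. It gives no read count, no signal height and no sample, so the depth is unknown, there is no replicate spread, and no difference between lists could be tested. The Wilson intervals (95%) given with shares cover counting error over genes only. H4K8ac lists held 38136 (ELE) and 30358 (sedentary) peaks in SIT, 12168 and 36425 on the left, and 13715 and 25159 on the right. H3K27me3 lists held 25693 and 10279 peaks in SIT, 18262 and 14491 on the left, and 9899 and 21790 on the right. Per the study's methods, ELE H4K8ac libraries with a high false discovery rate were left out, more of them from the separate isolations than from SIT. The separate ELE lists are the shortest of this mark, and a list may rest on fewer libraries than the labels give. For the SIT peaks that the study set beside RNA it also names fewer mice per condition than the labels do, and which libraries were pooled into each list was not worked out here. As a check of the labelled cell type, 5 to 8 of 10 excitatory neuron markers had an H4K8ac promoter peak in a list and 0 of 10 had an H3K27me3 promoter peak. Of 6 interneuron markers, 0 had an H4K8ac promoter peak and 5 had an H3K27me3 promoter peak in every list. Of 15 astrocyte, oligodendrocyte and microglia markers, 3 to 5 had an H4K8ac promoter peak and 4 to 6 an H3K27me3 promoter peak, so glial genes were not clear of H4K8ac.

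A promoter window of each of 6 genes from the pattern described below is shown first, and the peaks of a gene need not cover its window. 4 genes were assigned an H4K8ac peak near the start site in all 6 lists of that mark: Atp5g2, which encodes the c subunit of the ATP synthase rotor, Ndufa9 and Ndufb2, supernumerary subunits of complex I, and Ndufaf1, an assembly factor of complex I. The other two, Ndufv2, an iron-sulfur core subunit of complex I, and Uqcr10, a small subunit of complex III, had one in the ELE lists of SIT and of the right hippocampus and in no sedentary list. Each window (RefSeq, GRCm38.p6) runs 5′ to 3′ from 250 bases before to 50 bases after a start site. Capitals mark exact matches, on either strand, to NRF1 (GCGCATGCG), an ETS core (CCGGAAG), YY1 (AAGATGGCG), CCAAT or SP1 (GGGCGG). The windows are chr15:102670998-102671297 (minus strand) for Atp5g2, chr6:126849095-126849394 (minus) for Ndufa9, chr2:119662785-119663084 (minus) for Ndufaf1, chr6:39592315-39592614 (plus) for Ndufb2, chr17:66101510-66101809 (minus) for Ndufv2 and chr11:4704295-4704594 (minus) for Uqcr10.
Atp5g2: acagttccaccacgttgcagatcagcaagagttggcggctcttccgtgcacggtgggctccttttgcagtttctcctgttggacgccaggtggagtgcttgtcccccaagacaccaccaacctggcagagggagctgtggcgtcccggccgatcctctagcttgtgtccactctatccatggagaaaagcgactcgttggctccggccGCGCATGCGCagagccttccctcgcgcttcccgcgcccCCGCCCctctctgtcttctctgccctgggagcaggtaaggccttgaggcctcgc
Ndufa9: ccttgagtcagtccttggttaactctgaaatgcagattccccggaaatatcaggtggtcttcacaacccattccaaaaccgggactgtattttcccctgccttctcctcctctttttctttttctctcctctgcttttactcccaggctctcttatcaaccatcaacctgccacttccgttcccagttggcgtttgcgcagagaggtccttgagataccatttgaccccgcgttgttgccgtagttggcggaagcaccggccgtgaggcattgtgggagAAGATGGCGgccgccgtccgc
Ndufaf1: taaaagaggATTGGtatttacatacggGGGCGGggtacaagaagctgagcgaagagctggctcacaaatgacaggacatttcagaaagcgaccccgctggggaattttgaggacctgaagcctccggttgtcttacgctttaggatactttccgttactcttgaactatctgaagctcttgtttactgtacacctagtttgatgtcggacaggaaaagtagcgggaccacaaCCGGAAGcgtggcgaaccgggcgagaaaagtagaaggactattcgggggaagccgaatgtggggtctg
Ndufb2: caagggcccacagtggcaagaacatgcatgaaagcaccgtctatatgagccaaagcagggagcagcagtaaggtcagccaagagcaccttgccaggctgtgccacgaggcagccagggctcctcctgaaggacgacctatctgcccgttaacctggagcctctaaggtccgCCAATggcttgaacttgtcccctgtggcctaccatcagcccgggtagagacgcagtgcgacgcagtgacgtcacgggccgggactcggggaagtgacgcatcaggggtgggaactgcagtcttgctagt
Ndufv2: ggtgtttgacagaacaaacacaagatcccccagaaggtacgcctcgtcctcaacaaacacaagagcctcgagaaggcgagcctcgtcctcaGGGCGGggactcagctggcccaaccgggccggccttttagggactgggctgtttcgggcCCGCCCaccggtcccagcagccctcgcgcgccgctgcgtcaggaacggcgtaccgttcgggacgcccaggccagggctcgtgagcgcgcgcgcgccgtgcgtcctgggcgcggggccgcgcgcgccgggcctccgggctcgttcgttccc
Uqcr10: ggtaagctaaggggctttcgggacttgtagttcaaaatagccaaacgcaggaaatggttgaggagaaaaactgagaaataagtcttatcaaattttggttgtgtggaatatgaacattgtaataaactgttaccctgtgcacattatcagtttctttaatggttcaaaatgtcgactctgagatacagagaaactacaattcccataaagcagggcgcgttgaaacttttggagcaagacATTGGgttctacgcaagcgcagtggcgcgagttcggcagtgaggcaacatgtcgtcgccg
In Atp5g2 the NRF1 match is read on both strands from overlapping bases, and an SP1 match begins 4 bases before the start. The YY1 match of Ndufa9 lies downstream of the start, with its first base at position 30. Ndufaf1 holds an ETS core 18 bases before the start, Ndufb2 and Uqcr10 each hold a single CCAAT match, and Ndufv2 holds a pair of SP1 matches. No motif was common to all 6 windows.

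To determine how regularly active chromatin was found at these genes, the share with an H4K8ac promoter peak was counted in each list. A promoter peak is a peak that the authors assigned to the gene and that lies within 3 kb of one of its start sites. In SIT, 40 of 98 genes had one in the ELE list (40.8%, interval 31.6 to 50.7%, beside 28.5% of all protein-coding genes) and 25 in the sedentary list (25.5%, 17.9 to 35.0%, beside 18.1%). On the left, 9 genes had one in the ELE list (9.18%, 4.91 to 16.5%, beside 10.4%) and 38 in the sedentary list (38.8%, 29.7 to 48.7%, beside 26.8%). On the right, the numbers were 12 in the ELE list (12.2%, 7.15 to 20.2%, beside 12.6%) and 20 in the sedentary list (20.4%, 13.6 to 29.4%, beside 19.8%). The share of all genes lay below the interval of the oxidative phosphorylation genes in the ELE SIT list and the sedentary left list, the longest lists of this mark, and inside it in the other 4. In the sedentary SIT list the share was 1.41 times that of all genes, as against 1.43 and 1.45 times in those longest lists, but its interval just reached the share of all genes. In the ELE left, ELE right and sedentary right lists it was close to that of all genes (0.884, 0.972 and 1.03 times). A stricter count, of genes with a start site inside an H4K8ac peak whatever gene the peak was assigned to, gave 40 genes in the ELE SIT list (40.8%, beside 21.6% of all genes), 13 in the sedentary SIT list (13.3%, beside 9.45%), 8 in the ELE left list (8.16%, beside 6.09%), 31 in the sedentary left list (31.6%, beside 15.7%), 12 in the ELE right list (12.2%, beside 7.5%) and 16 in the sedentary right list (16.3%, beside 13.5%). By this count the oxidative phosphorylation genes lay above all genes in all 6 lists, by 1.21 to 2.02 times, and the share of all genes fell outside their interval in the same longest lists.

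**Figure D1:**
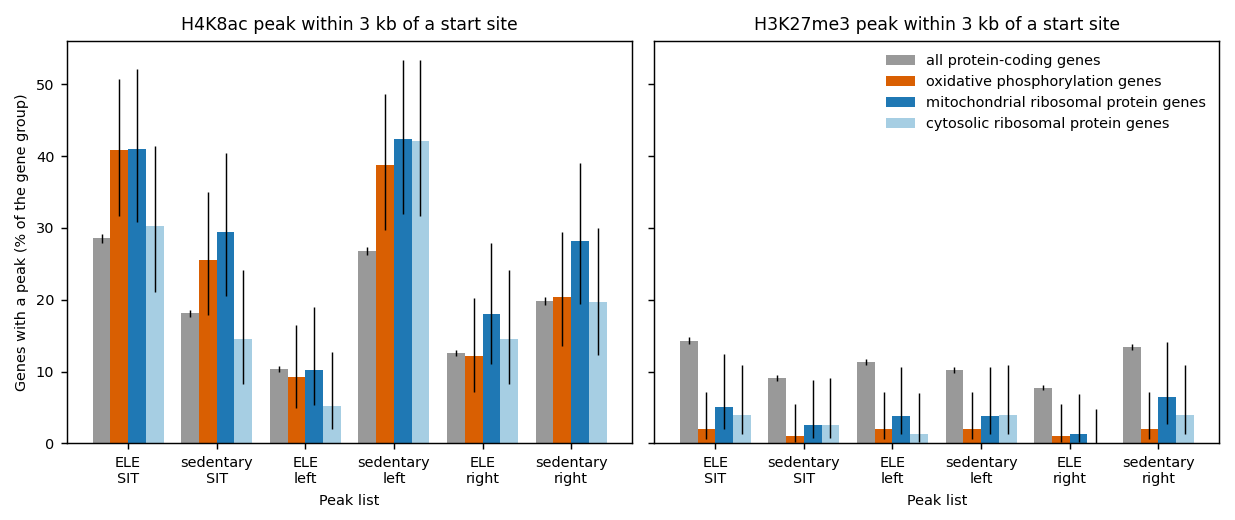
Percentage of each gene group with a peak within 3 kb of a start site, for H4K8ac and H3K27me3, in each of the 12 pooled lists. Bars are shares and lines are 95% Wilson intervals (counting error over genes). For H4K8ac the oxidative phosphorylation genes range from 9.18 to 40.8%, and for H3K27me3 they stay at 1.02 or 2.04%, below all protein-coding genes in every list.

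Across the 6 H4K8ac lists, 58 of the 98 genes had a promoter peak at least once and 40 (40.8%) never did, where 60.3% of all protein-coding genes never did. Most were marked irregularly: 17 genes in 1 list (17.3%, beside 11.3% of all genes), 21 in 2 (21.4%, beside 7.75%), 8 in 3 (8.16%, beside 6.33%), 3 in 4 (3.06%, beside 5.35%) and 5 in 5 (5.10%, beside 4.54%). By this count the excess over all genes lay mainly at genes marked in 1 or 2 lists. With a start site inside a peak the genes also lay above all genes in 4 lists (6 genes, 6.12%, beside 3.51%), 5 lists (3 genes, 3.06%, beside 2.41%) and 6 lists (2 genes, 2.04%, beside 1.69%), by small numbers. Only Atp5g2, Ndufa9, Ndufaf1 and Ndufb2 were marked in all 6 (4.08%, beside 4.39% of all genes), a share near that of the genome. By position alone, with any peak within 1 kb of a start site whatever gene it was assigned to, 5 genes were marked in all 6 lists, these and Sdhc (5.10%, beside 3.07% of all genes). The 5 genes marked in 5 lists were Uqcrfs1, the Rieske iron-sulfur protein of complex III, Cox7a2l, which joins complexes III and IV into supercomplexes, Sdhaf4, an assembly factor of complex II, and the complex I subunits Ndufa5 and Ndufb4. Uqcrfs1, Cox7a2l and Sdhaf4 lacked a promoter peak in the ELE right list, Ndufb4 in the ELE left list and Ndufa5 in the sedentary SIT list.

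The peaks at the 4 constant genes differed in extent. At Atp5g2 the widest promoter peak measured 4919 bp in the ELE SIT list and 3816 bp in the sedentary SIT list. On the left it measured 2758 bp in the ELE list and 2795 bp in the sedentary list, where it lay over a start farther into the gene and a second peak of 1977 bp lay upstream. On the right it measured 2797 bp (ELE) and 4323 bp (sedentary). Atp5g2 (chr15:102662864-102672352, minus strand) has several annotated start sites, and its peaks reached from the upstream flank into the gene body. At Ndufb2 (chr6:39592574-39603382, plus strand) widths were 3069 and 1519 bp in SIT, 3078 and 3165 bp on the left, and 1267 and 2727 bp on the right, the ELE value first. The ELE right peak ended 45 bp before the start site of the printed window, whereas the others covered it. Ndufaf1 (chr2:119655446-119662827, minus strand) had peaks from 1007 to 2208 bp wide, with a median of 1596.5 bp, and its start site lay inside the peak in every list. At Ndufa9 (chr6:126821721-126849136, minus strand) peaks ran from 864 to 2305 bp and lay mostly upstream, with the side nearest the gene between 56 bp before and 747 bp after the printed start.

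**Figure D2:**
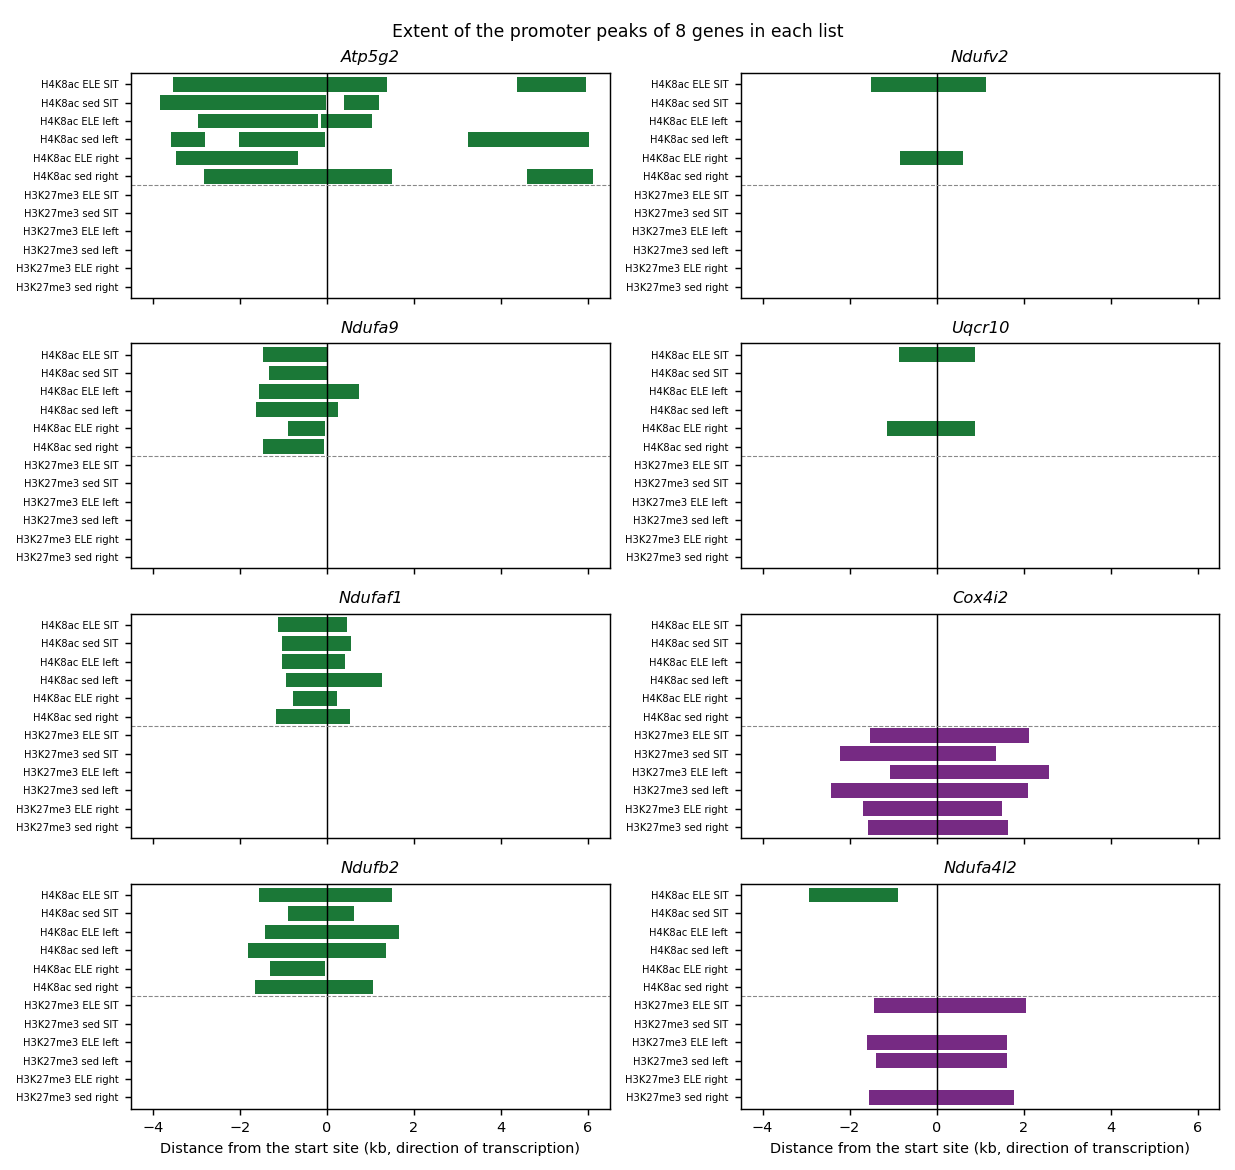
Extent of promoter peaks (kb from 1 start site per gene, in the direction of transcription) in each list for the 4 genes with H4K8ac in all 6 lists, for Ndufv2 and Uqcr10, and for the 2 genes with H3K27me3. Green bars are H4K8ac and purple bars H3K27me3; the H3K27me3 peaks of Cox4i2 and Ndufa4l2 lie on both sides of the start site in every list that holds them.

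Among the widest promoter peaks of each list, Atp5g2 ranked first in 4 lists and second in the ELE left list, where Ndufb2 had the widest. In the sedentary left list the widest belonged to Cox7a2l (3596 bp), Ndufb2 (3165 bp) and Atp5j2 (2881 bp), which encodes a small membrane subunit of ATP synthase. Uqcrfs1 (2967 bp, ELE SIT), Sdhaf4 (2385 bp, ELE left, and 2066 bp, sedentary SIT), Ndufb4 (2770 bp) and Ndufa5 (2111 bp, both ELE right), Cox7a2l again (3066 bp, sedentary SIT) and Sdhaf3 (3147 bp, sedentary right), an assembly factor of complex II, completed the 3 widest of the lists. Median widths over all promoter peaks of these genes ran from 1399.5 to 1703 bp across the 6 lists, and those of all promoter peaks from 1299 to 1853 bp. The genes' median was the larger in 2 lists, sedentary SIT and sedentary left, so their peaks were not regularly broader or narrower. A start site lay inside 53.8 to 83.7% of the genes' promoter peaks, against 46.2 to 60.7% of all promoter peaks, and the genes had the larger value in every list.

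By complex, a promoter peak in at least 1 H4K8ac list was found at 5 of 7 core subunits of complex I, 18 of 30 supernumerary subunits of complex I, 2 of 4 subunits of complex II, 5 of 8 of complex III, 7 of 18 of complex IV and 11 of 16 of ATP synthase, and at 10 of 15 assembly factors and related genes. Over all protein-coding genes the share was 39.7%. Complex IV, at 38.9%, was near that background, and the other groups lay above it, from 50.0% for complex II to 71.4% for the complex I core, each over few genes. No core subunit of complex I was marked in 3 or more lists. Ndufs8, which holds iron-sulfur clusters, was marked in both SIT lists and nowhere else. Ndufs7 was marked in the ELE SIT list alone, with a peak of 1706 bp over the start site. Ndufs1, the largest subunit of the electron-input arm, was assigned promoter peaks in the sedentary SIT and sedentary left lists, but they lay 1826 and 2650 bp beyond the start of a short transcript and 31268 and 32092 bp from the 5′ end of the gene. Ndufs3 had no promoter peak, and Ndufv1, which holds the NADH site, had no assigned peak in any list.

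In complex II, Sdhb, the iron-sulfur subunit, had a promoter peak in the ELE SIT list (1564 bp) and the sedentary left list (1195 bp), and Sdhc, a membrane anchor, in the sedentary SIT list (1027 bp). Sdha, the flavoprotein, and Sdhd, the other anchor, were not assigned any peak. In complex III, Uqcrfs1 peaks measured 2967 and 1920 bp in SIT (ELE and sedentary), 1325 and 1688 bp on the left and 2272 bp in the sedentary right list. In complex V, Atp5b, the catalytic beta subunit, had a promoter peak in the ELE SIT list alone, 1014 bp wide and 240 bp upstream of the start, and Atp5a1, the alpha subunit, had none. Absence from a list says only that no peak was called and assigned to the gene: these genes are used by every neuron, and the depth behind the lists is unknown.

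To assess repressive chromatin at the same genes, H3K27me3 promoter peaks were counted in the same way. In SIT they were found at 2 of 98 genes in the ELE list (2.04%, 0.562 to 7.14%, beside 14.3% of all genes) and 1 in the sedentary list (1.02%, 0.180 to 5.56%, beside 9.08%). On the left they were found at 2 genes in the ELE list (beside 11.4%) and 2 in the sedentary list (beside 10.3%). On the right they were found at 1 gene in the ELE list (beside 7.77%) and 2 in the sedentary list (beside 13.4%). The share of all genes lay above the interval of the oxidative phosphorylation genes in each of the 6 lists. Over the 6 lists together, 96 of 98 genes (97.96%) had no H3K27me3 promoter peak, as did 82.99% of all protein-coding genes.

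The exceptions were 2 genes with restricted expression. Cox4i2 encodes the alternative, oxygen-responsive form of subunit 4 of cytochrome c oxidase, and it had an H3K27me3 promoter peak in all 6 lists, as did 6.07% of all protein-coding genes. The peaks measured 3647 bp (ELE) and 3577 bp (sedentary) in SIT, 3654 and 4533 bp on the left and 3206 and 3229 bp on the right. Each covered the start site, from between 1068 and 2438 bp upstream to between 1361 and 2585 bp downstream, and a stretch of 2430 bp (chr2:152753105-152755534) was common to all 6. Cox4i2 (chr2:152754173-152765037, plus strand) had no H4K8ac promoter peak in any list. The 8 H4K8ac peaks assigned to it lay 19530 to 33273 bp downstream of its start.

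Ndufa4l2 encodes a hypoxia-induced relative of the complex IV subunit Ndufa4. Its H3K27me3 peaks measured 3494 bp in the ELE SIT list, 3228 and 3010 bp in the ELE and sedentary left lists and 3344 bp in the sedentary right list, each over the start site. The sedentary SIT and ELE right lists, the shortest but one and the shortest of this mark, held no such peak. In the ELE SIT list it also had an H4K8ac peak of 2041 bp that ended 893 bp upstream of the start and overlapped the H3K27me3 peak by 556 bp. The lists pool samples and cells, so whether both marks lay on the same chromosomes was not tested.

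Other H3K27me3 peaks carried the names of these genes without lying near them. Of 138 H3K27me3 peaks assigned to genes of the set, 10 were promoter peaks, and 123 of the remaining 128 lay more than 10 kb from the start site. Atp5g3, another gene for the c subunit, was assigned 48 such peaks at 29436 to 184911 bp, and Cox7c, a small subunit of complex IV, 27 at 121688 to 282955 bp. These are peaks to which no nearer gene was assigned, and counting them would give H3K27me3 to genes whose promoters had none.

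Related copies of complex IV subunits differed in their marks. Cox4i1, the widely used form of subunit 4, had no promoter peak of either mark, and Cox4i2 had H3K27me3 alone. Cox6a1, the form of most tissues, had H4K8ac in the sedentary left list alone (958 bp), and the muscle form Cox6a2 had no promoter peak. Cox6b1 had H4K8ac in the ELE SIT (1664 bp) and sedentary left (1920 bp) lists, and the testis form Cox6b2 no assigned peak. Cox7a2 had H4K8ac over the start site in both SIT lists (2315 and 1498 bp) and the sedentary left list (2081 bp). Its muscle counterpart Cox7a1 had H4K8ac in the sedentary SIT and sedentary right lists, at 1335 and 1472 bp upstream of the start. Cox7b, Cox8a, Cox8b and Cox8c were not assigned any peak, and Cox7b2 was assigned 22 H4K8ac peaks, the nearest 17888 bp away. Ndufa4 had H4K8ac over the start in the sedentary SIT (746 bp) and sedentary right (1665 bp) lists. Of the 8 less widely used copies, H3K27me3 at the promoter was found at Cox4i2 and Ndufa4l2.

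The study's main contrast, ELE against sedentary, was followed within each arm by counting the genes that had the H4K8ac peak at the promoter in only 1 list of the pair. In SIT, 25 genes had one in the ELE list alone (25.5%, beside 14.4% of all genes), 10 in the sedentary list alone (10.2%, beside 3.94%) and 15 in both. On the left, 0 genes had one in the ELE list alone (beside 1.6%), 29 in the sedentary list alone (29.6%, beside 18.0%) and 9 in both. On the right, 5 had one in the ELE list alone (5.10%, beside 3.05%), 13 in the sedentary list alone (13.3%, beside 10.3%) and 7 in both. The balance was 15 genes towards ELE in SIT, 29 towards sedentary on the left and 8 towards sedentary on the right. In each arm it went to the longer list, as it did for all genes. With a start site inside a peak, the ELE genes minus the sedentary genes came to 27 in SIT, -23 on the left and -4 on the right. Over all genes these values were 2653, -2105 and -1318. With the longer list of each arm reduced to its widest peaks, so that both lists held the same number, the balance was 9 genes towards ELE in SIT, 6 towards sedentary on the left and 6 towards ELE on the right. The sign on the right thus changed with this choice. The balance of all protein-coding genes with equal numbers of peaks is not given here. Whether the change of sign is particular to these genes was therefore not tested.

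**Figure D3:**
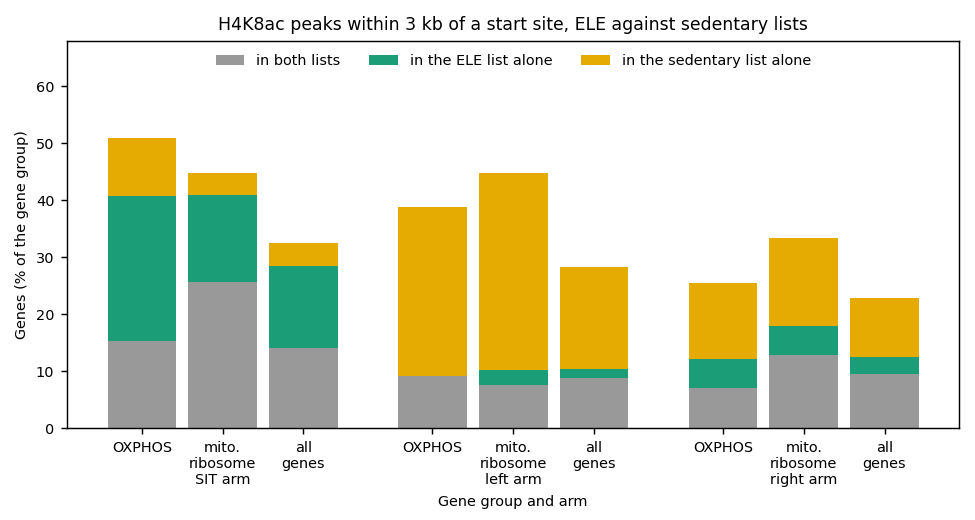
Percentage of each gene group with an H4K8ac peak within 3 kb of a start site in both lists, in the ELE list alone or in the sedentary list alone, stacked, for each arm. OXPHOS, oxidative phosphorylation genes; mito. ribosome, mitochondrial ribosomal protein genes. Peaks in the ELE list alone reach 25.5% of oxidative phosphorylation genes in SIT and 0 on the left.

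No gene of the set went the same way in all 3 arms, and among all protein-coding genes 22 (0.1%) had a peak in the ELE list alone and 75 (0.342%) in the sedentary list alone in every arm. Ndufv2 and Uqcr10, whose promoters are printed above, were the only genes of the set marked in the ELE list alone in 2 arms without the opposite in the third (2 of 98, beside 183 or 0.835% of all genes). At Ndufv2 (chr17:66078638-66101559, minus strand) the peaks measured 2657 bp in SIT and 1454 bp on the right, both over the start site. At Uqcr10 (chr11:4701973-4704342, minus strand) they measured 1762 and 2018 bp. Neither gene had a promoter peak in a left list. In the other direction, 9 of the 98 genes, beside 886 or 4.04% of all genes, were marked in the sedentary list alone in 2 arms without the opposite in the third: Cox7a1, Cox7c, Ndufa4, Ndufab1, Ndufaf4, Ndufaf5, Ndufaf6, Ndufb6 and Ndufs1. Of these, Cox7c and Ndufb6 had H4K8ac in both SIT lists and differed in both separate arms. Both counts depended on how a peak was tied to a gene. With a start site inside a peak, whatever name the peak carried, 3 genes went towards ELE (Ndufb4, Ndufv2 and Uqcr10, beside 249 of all genes) and 4 towards sedentary (Cox7c, Ndufa4, Ndufaf6 and Uqcrfs1, beside 491). With any peak within 1 kb of a start site, the counts were 2 and 7, beside 224 and 764. These genes, apart from Ndufs1, Ndufv2 and the paralogs, were singled out after their values were seen.

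Of the 16 subunits of ATP synthase, 6 were marked in the ELE list alone in SIT and 0 in the sedentary list alone, whereas on the left 0 and 7 were, and on the right 1 and 2. The shares of all genes given above for each arm are the background to these small counts. For the 30 supernumerary subunits of complex I the numbers were 10 and 2 in SIT, 0 and 8 on the left, and 1 and 4 on the right. Atp5e, Atp5g1, Atp5j and Atp5j2 were marked in the ELE list alone in SIT and in the sedentary list alone on the left. For H3K27me3, a promoter peak in the ELE list alone was found in SIT at Ndufa4l2 (1 gene, beside 5.49% of all genes) and in the sedentary list alone at 0 genes (beside 0.278%). On the left 0 genes differed in either direction (beside 2.56% and 1.43%). On the right 0 genes had it in the ELE list alone (beside 0.616%) and Ndufa4l2 had it in the sedentary list alone (beside 6.25%). The direction at Ndufa4l2 was therefore opposite in SIT and on the right, and in both arms it went to the longer list.

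The position of start sites bore on these counts. At 7 genes at least 1 H4K8ac promoter peak lay more than 3 kb from the 5′ end of the gene, near the start of a shorter transcript, and at Atp5d, Ndufs1 and Sdhaf2 this held for every one. Many genes of the set share a promoter region with a neighbour: 32 of 98 (32.7%) had the start site of another protein-coding gene on the opposite strand within 1000 bp upstream, against 9.82% of all protein-coding genes. Since a peak was assigned to 1 gene, a peak over the start of a gene can carry its neighbour's name. The start sites of Uqcrb and Ndufa13 lay inside H4K8ac peaks assigned to Gm10767 and Yjefn3 in 4 lists each, and that of Ndufs3 inside a peak assigned to Kbtbd4 in the ELE SIT list. In all 7 genes had such a peak in some list and 0 in every list. Among genes marked in 3 to 6 lists 2 of 20 had such a neighbour, and among those never marked 17 of 40. With any peak within 1 kb of a start site counted, whatever name it carried, the numbers were 6 of 26 and 16 of 37.

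Genes of the same pathway whose symbols fall outside the naming rule were counted beside them. Of 57 such genes (cytochromes c and c1, further assembly factors and nuclear regulators of mitochondrial genes), 25 had an H4K8ac promoter peak in the ELE SIT list and 8 in the sedentary SIT list, 8 and 22 on the left and 11 and 13 on the right. H3K27me3 promoter peaks were found at 1 or 2 of them in each list, beside 7.77 to 14.3% of all genes. Of 14 citric acid cycle genes, 7 had H4K8ac in the ELE SIT list and 2 in the sedentary SIT list, 1 and 4 on the left and 2 and 5 on the right. Of 16 glycolytic genes the numbers were 7 and 7, 3 and 10, and 5 and 9. The H4K8ac shares of all protein-coding genes beside these small counts were 28.5% (ELE) and 18.1% (sedentary) in SIT. They were 10.4 and 26.8% on the left and 12.6 and 19.8% on the right. The 78 mitochondrial ribosomal protein genes had H4K8ac at 32 and 23 genes in SIT, 8 and 33 on the left and 14 and 22 on the right, a share above that of the oxidative phosphorylation genes in all 6 lists, though the intervals overlapped. The 76 cytosolic ribosomal protein genes had it at 23 and 11, 4 and 32, and 11 and 15 genes, and 0 of them in all 6 lists. The low H3K27me3 of the oxidative phosphorylation genes was shared by both ribosomal groups, with 1 to 5 mitochondrial and 0 to 3 cytosolic genes per list.

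The promoter windows were searched for binding motifs of factors known to act on nuclear genes of mitochondrial proteins. RefSeq windows were at hand for 79 of the 98 genes (84 windows), and 20150 windows of protein-coding genes served for comparison. The NRF1 motif was found in 10 of 84 windows (11.9%, beside 2.45% of all windows), the ETS core in 21 (25.0%, beside 11.9%) and the YY1 motif in 8 (9.52%, beside 1.93%). CCAAT was found in 35 (41.7%, beside 37.8%) and the SP1 motif in 39 (46.4%, beside 47.8%), close to the share of all windows. Windows of genes with H4K8ac in 3 to 6 lists held NRF1 in 2 of 21, the ETS core in 6, YY1 in 4, CCAAT in 4 and SP1 in 11. Windows of genes marked in 1 or 2 lists held NRF1 in 5 of 35, the ETS core in 8, YY1 in 4, CCAAT in 16 and SP1 in 13. Windows of genes never marked held NRF1 in 3 of 28, the ETS core in 7, YY1 in 0, CCAAT in 15 and SP1 in 15. Marking here goes by assigned promoter peaks. Some genes never marked, such as Ndufa13 and Ndufs3, had a start site inside an H4K8ac peak assigned to another gene. The median number of CpG dinucleotides was 19 for genes marked in 3 to 6 lists, 21 for those marked in 1 or 2, 19 for those never marked and 14 over all windows. An exact match is a description of the letters in a window and not a measured binding site.

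**Figure D4:**
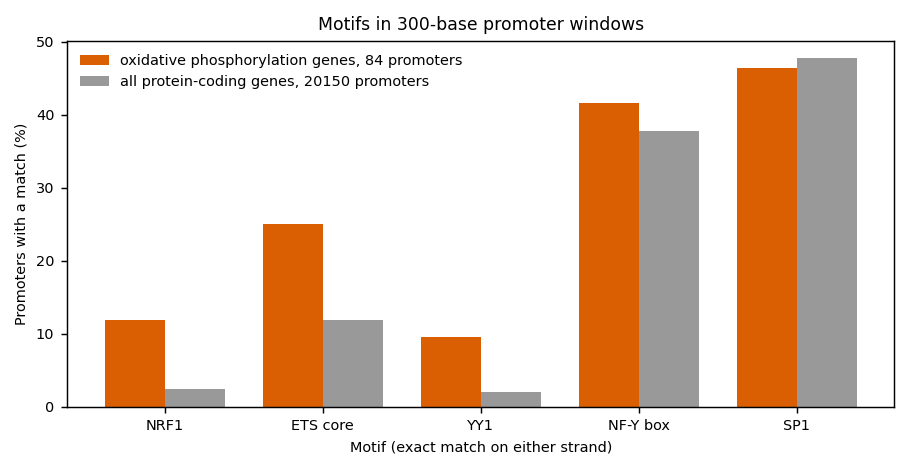
Percentage of 300-base promoter windows with an exact match to each motif on either strand, for 84 windows of oxidative phosphorylation genes and 20150 windows of protein-coding genes. NRF1, the ETS core and YY1 stand at 11.9, 25.0 and 9.52% against 2.45, 11.9 and 1.93%, whereas the NF-Y box (CCAAT) and SP1 differ little.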

How the data were processed

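Libraries from CUT&RUN-seq (H4K8ac, H3K27me3, IgG) were grouped by antibody, condition and arm as labelled. Per the labels and the paper, alignment by the authors used Bowtie2 2.4.1 (mm10), peak calling used SEACR (stringent, 0.01), and annotation used ChIPseeker 1.8.6 with promoters taken as start sites ± 3 kb. The deposited tables hold peak positions, widths and distances in bp and an assigned gene, with no counts. How libraries were combined is not given in the sources used here.

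Peak transcripts were matched to GENCODE M21 (99.4% of peaks) and genes counted as present or absent per list, in Python 3.11.15 with numpy 2.4.6 and pandas 2.3.3. As lists are pooled, no test was run. Interval functions were tested on simulated data. The members and gene lists were chosen with earlier results of these data known. Genes were named if they had H3K27me3 at the promoter, went 1 way in all arms, were complex I core, Sdh, Uqcrfs1, ATP synthase alpha or beta subunits, belonged to a paralog pair, had 1 of the 3 widest H4K8ac promoter peaks of a list, or had their start in another gene's H4K8ac peak in all 6 lists. Others named were chosen after their values were seen. Ribosomal groups were set by symbol pattern. IgG libraries were not analysed here, and some results on single genes are not reported here.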

Additional observations from a re-analysis of the deposited data

Results flagged for a closer look

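The balance of oxidative phosphorylation genes with an H4K8ac promoter peak in the ELE list alone minus those in the sedentary list alone was 15 genes in SIT, -29 on the left and -8 on the right. It was opposite in sign between SIT and each separate arm, and the difference between arms was not tested, since each arm has 1 list per condition. The balance of all protein-coding genes had the same signs, 2286 in SIT, -3591 on the left and -1588 on the right.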

How the results depend on the processing

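No paired analysis was possible because the lists carry no replicate numbers. Over H4K8ac promoter shares, 39 of 54 alternatives stayed within the interval of the reported share, and over H3K27me3 shares 34 of 42. Any assigned peak gave H4K8ac shares of 54.1% (ELE SIT), 35.7% (sedentary SIT), 50.0% (sedentary left) and 29.6% (sedentary right), and H3K27me3 shares of 16.3% and 7.14% in SIT (ELE, sedentary), 10.2% and 9.18% on the left, and 15.3% in the sedentary right list. The widest 50% of each list gave 19.4 and 15.3% in SIT, 4.08 and 24.5% on the left, and 4.08 and 6.12% on the right for H4K8ac, and 0 for H3K27me3 in the sedentary SIT list. Equal numbers of peaks by width gave 15.3% (sedentary left) and 6.12% (sedentary right) for H4K8ac, and 0 for H3K27me3 in the ELE SIT and sedentary right lists. Start sites inside a peak gave 13.3% in the sedentary SIT list. Any peak within 1 kb of a start site put these genes above all genes in each H4K8ac list, by 1.30 to 1.82 times. Over members found in a list, an alternative added after seeing the data, H4K8ac shares were 55.6% (ELE SIT) and 52.8% (sedentary left).

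For H4K8ac in 1 list alone, start sites inside a peak gave 3 genes in the sedentary SIT list alone, a balance of 27 genes in SIT and -4 on the right. Peaks within 1 kb of a start site, whatever their name, gave a balance of 25 in SIT and 1 gene in the ELE left list alone. Equal numbers gave balances of 9 in SIT, -6 on the left (1 gene in ELE alone, 7 in sedentary alone) and 6 on the right (9 and 3), where the sign reversed. For H3K27me3, any assigned peak gave 9 genes in the ELE SIT list alone (balance 9), 2 and 1 on the left (balance 1), and 10 in the sedentary right list alone (balance -10). Equal numbers reversed the balance to -1 in SIT (0 and 1 genes) and 1 on the right (1 and 0 genes). For neither mark are the equal-number balances of all genes given here. Without the separate right arm, 7 genes had H4K8ac in all lists in place of 4. The cause of these shifts was not tested. Depth is unknown and limits every absence.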

Other observations

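Chromosome X was thin in all lists, with 831 of 256375 peaks. A promoter peak of H4K8ac was found in at least 1 list at 9.71% of 948 protein-coding genes on X and at 41.0% of 20963 on other chromosomes. The 3 oxidative phosphorylation genes on X, Ndufa1, Ndufb11 and Cox7b, were not assigned a peak in any list.

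Several genes of the set without an H4K8ac promoter peak were assigned H4K8ac peaks far away. Cox7b2 was assigned 22 in all 6 lists, Ndufaf2, an assembly factor of complex I, 13 in 6 lists at 5034 to 55006 bp, and Ndufa10, a complex I subunit, 13 in 5 lists at 22185 to 88475 bp. Ndufa4 was assigned 11 peaks at 173840 to 313780 bp beside its promoter peaks.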
